A study of Mus musculus with 8 samples.

Results

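This account covers the progression of 2 mouse tumour lineages, OT14 and OT15, from well differentiated skin squamous cell carcinoma (WD-SCC) to the later stage that the sample titles write as PD/S-SCC and the stage label as poorly differentiated SCC. Its members were chosen by their titles and are 4 of the 8 arrays of the series: 1 WD-SCC and 1 PD/S-SCC array of each lineage. The other 4 arrays come from a further lineage, OT7, with 2 arrays per stage, and serve here for comparison. Skin tumours of K14-HPV16 mice, in which a keratin 14 promoter drives papillomavirus genes in basal keratinocytes, had arisen spontaneously or after DMBA and TPA treatment. They were grafted into skin of immunodeficient mice, which the labels call nude mice, and passed on serially. The strain is given as FVB/C57/Bl6 for every array and no age is given. Which lineage began as a spontaneous and which as an induced tumour is not stated. All groups therefore share the HPV16 transgene, the immunodeficient host and the sort: dissociated tumours were depleted of blood and endothelial cells, and cells carrying α6-integrin and CD34, which the labels call cancer stem cells, were collected by flow cytometry. The labels name 1 tumour for each lineage, and each lineage gave 1 array per stage. The p-values of the stage difference over both lineages rest on how differently the 2 lineages moved between stages. For the larger part they rest on a spread borrowed across genes. Those within a lineage or between lineages take their spread from the OT7 arrays and, in nearly equal part, from a spread borrowed across genes. Nothing measured how far repeat samples of 1 stage of OT14 or OT15 would differ.

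Keratinocytes of stratified skin are joined by desmosomes and tight junctions, are filled with paired keratins, and on leaving the basal layer build a cornified envelope from small proline-rich, late cornified envelope and crosslinking proteins. Squamous carcinomas keep this programme to a varying degree, and its loss, with a spindle shape and mesenchymal genes, is a histological mark of poor differentiation. CD34 and α6-integrin mark stem cells of the hair follicle bulge and have been used to enrich tumour-propagating cells of mouse skin carcinomas.

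Expression is given throughout as the deposited log2 level, so that a difference of 1 is a doubling. A probe set of a single gene was on the arrays for 17097 genes. The highest of 15 bacterial control probe sets without a spike stood at 3.82 and 4.37 on the WD-SCC arrays of OT14 and OT15 and at 3.61 and 3.81 on their PD/S-SCC arrays. A gene at or under that value on both arrays of a stage has only a bound on its fold, written as "at least". Between 7735 genes (WD-SCC of OT15) and 10894 genes (PD/S-SCC of OT14) were above the control of their array. The nonspecific control probe set of high GC content read 0.92 lower in PD/S-SCC than WD-SCC in OT14 and 1.48 lower in OT15. By this 1 control, background differed with stage. Its part in the results was not tested. Over all genes, which are not independent replicates, the 2 PD/S-SCC arrays correlated at 0.970 and the 2 WD-SCC arrays at 0.950, while the stages correlated at 0.871 within OT14 and 0.848 within OT15.

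One array stood apart and is named before any result. The Xist level, which marks the inactive X chromosome of female cells, was 9.36 and 10.29 on the WD-SCC and PD/S-SCC arrays of OT14 and 9.45 on the PD/S-SCC array of OT15, but 4.01, under the bacterial control, on the WD-SCC array of OT15. The Y-linked gene Eif2s3y read 5.47 on that array and 3.54, 3.54 and 3.43 on the other three, each under its control. The Y-linked genes Kdm5d and Uty lay under or near the controls on all 4 arrays, at 3.64 to 3.72 and at 2.94 to 3.63. The probe set of Sry, also Y-linked, was above the controls on all 4 arrays, with values given under other observations. The 2 stages of OT15 thus differed in sex-linked transcripts and those of OT14 did not, so the stage difference of OT15 compares arrays that differ in these transcripts. Whether both OT15 arrays hold cells of 1 tumour was not tested, and their pairing rests on the labels. The same array also read lowest for the sort markers. Cd34 was 6.87 and 7.96 on the WD-SCC and PD/S-SCC arrays of OT14, 8.72 on the PD/S-SCC array of OT15 and 3.58, under the control, on the WD-SCC array of OT15. Itga6, which encodes the α6 chain, was 7.55 and 7.14 in OT14 and 5.32 and 7.85 in OT15, in the order WD-SCC and PD/S-SCC. With both lineages neither gene passed (adjusted p = 0.279 and 0.584, limma). The difference of Cd34 was 1.09 in OT14 and 5.15 in OT15, each of 1 array against 1. The count of all genes past the threshold, and the counts of some lists, are therefore given for both lineages together and for OT14 alone. For the other lists a call over both lineages does not show a call in OT14 alone.

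The first comparison asked what changed between stages within a lineage. Cells of PD/S-SCC had far lower levels of genes of stratified and cornifying epithelium than cells of WD-SCC, many of them at background after a level near the top of the array's range. Tight junction, desmosome and epithelial surface genes also fell. In the fit of the 4 arrays fewer genes passed as higher, by smaller amounts. Among them were the GDNF co-receptor Gfra2, the retinoic acid binding protein Crabp1, the proteoglycans Sdc2 and Vcan, 4 of 36 mitosis genes and 1 of 37 replication genes. This split depended on the fit: over all 8 arrays 534 genes passed as higher and 516 as lower. With lineage as a block, 246 of 17097 genes passed an adjusted p under 0.05 (limma, two-sided, Benjamini-Hochberg over all genes), which is 1.44% of the genes tested. Of them 52 were higher in PD/S-SCC (0.304% of all genes) and 194 lower (1.13%). A measured difference of at least 16-fold was reached by 4 of the higher and 115 of the lower genes, and the smallest measured difference past the threshold was -2.12 on the log2 scale, for Il1a, which lay under the controls in PD/S-SCC and was at least 3.37-fold lower. The 4 arrays leave 1 residual degree of freedom, so a gene passed when its difference was large and nearly equal in both lineages. Of 659 genes with a measured difference at least as large, 413 did not pass. All 246 genes had the same sign in both lineages, which that test favours, as had 68.3% of all genes. Both PD/S-SCC arrays were above both WD-SCC arrays for 24.5% of all genes and below them for 29.4%. Leaving out the PD/S-SCC array of either lineage ended every call: without that of OT14, 0 genes passed (2265 at an unadjusted p under 0.05) and without that of OT15, 0 genes passed (2465), in limma without the lineage block. Without the WD-SCC array of OT14 448 genes passed, and without that of OT15, which stood apart, 336. OT14 alone, with the spread taken from the OT7 arrays, gave 144 genes (0.842%), 31 higher and 113 lower, and OT15 alone gave 227 (1.33%), 96 higher and 131 lower. Leaving out either WD-SCC array of OT7 raised these counts to 438 and 664, and leaving out either PD/S-SCC array of OT7 left 0 in each.

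**Figure D1:**
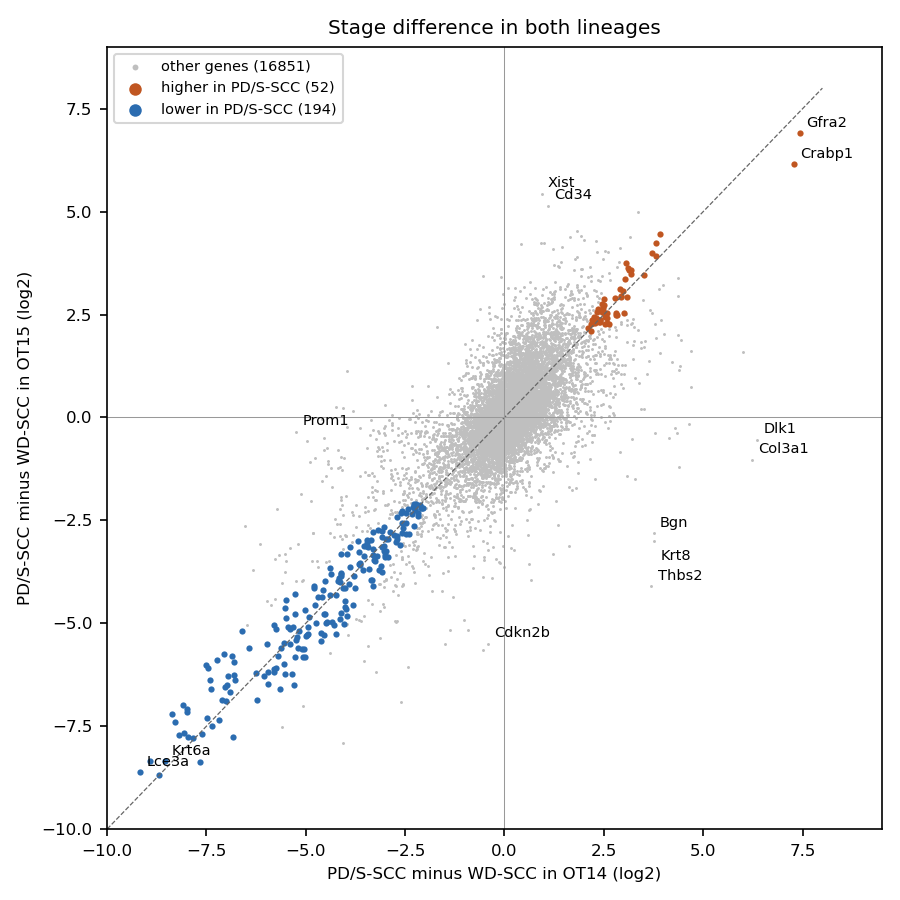
Stage difference (PD/S-SCC minus WD-SCC, log2) of each of the 17097 genes in OT14 (horizontal axis) against OT15 (vertical axis). Orange points are the 52 genes past the threshold that were higher and blue points the 194 that were lower in PD/S-SCC; they lie along the dashed line of equal differences, whereas Dlk1, Col3a1, Krt8, Bgn, Thbs2, Cdkn2b, Xist, Cd34 and Prom1 lie far from it.

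For the counts of each list over both lineages, here and below, the shares of all genes were 0.304% that rose and 1.13% that fell. The cornified envelope list held 42 measured genes, of which 0 rose and 19 fell. Its median difference was -4.64 against -0.03 over all genes (OT14 -4.54, OT15 -3.54). With values under the controls raised to them the list median was -4.52. Lce3a, a late cornified envelope gene, read 12.32 and 12.29 on the WD-SCC arrays of OT14 and OT15 and 3.15 and 3.68 on the PD/S-SCC arrays. It was among the brightest genes of both WD-SCC samples and lay under the bacterial control in both PD/S-SCC samples, at least 386-fold lower (adjusted p = 0.0252, limma). Sprr2f, a small proline-rich precursor of the envelope, read 11.71 and 11.83 in WD-SCC and 3.01 and 3.14 in PD/S-SCC, at least 266-fold lower. Sprr2d, at 12.26 and 12.18 against 3.34 and 3.84, and Sprr2h, at 11.46 and 11.64 against 3.81 and 3.26, differed as widely. The small proline-rich genes share much sequence, and their probe sets may not tell them fully apart. Further members past the threshold were Dmkn and Sbsn, secreted products of the upper epidermis, Cdsn, which encodes corneodesmosin, Cnfn, which encodes cornifelin, and Tgm1, which encodes the crosslinking transglutaminase. Dmkn was at least 196-fold lower, and the differences of the others ran from -7.27 for Sbsn to -6.57 for Tgm1. Envoplakin (Evpl) and periplakin (Ppl), which form the scaffold of the envelope, fell by 4.86 and 4.67. Not every member behaved alike in the lineages: Lor, the gene of loricrin, read 7.64 and 5.38 in WD-SCC and 4.43 and 4.57 in PD/S-SCC, and Ivl, the gene of involucrin, 7.63 and 5.69 against 4.53 and 4.74, both without passing.

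**Figure D2:**
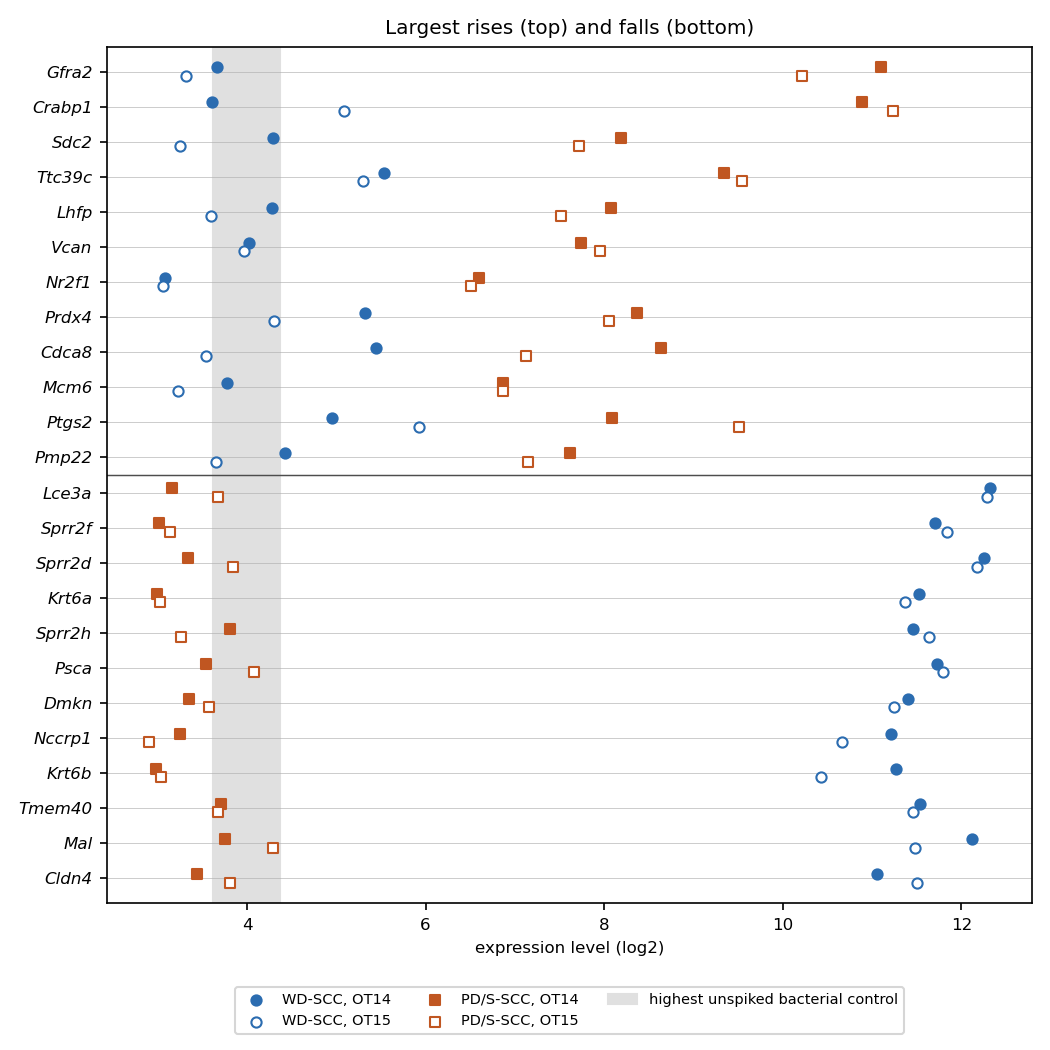
Expression level (log2, horizontal axis) of the 12 largest rises (above the line) and the 12 largest falls (below it) past the threshold, 1 point per array: circles WD-SCC, squares PD/S-SCC, filled OT14, open OT15. The grey band spans the highest unspiked bacterial control of the 4 arrays; all 12 falls run from above 10 in WD-SCC to within or below the band in PD/S-SCC.

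Keratins fell as well. The basal and stress keratin list (12 genes) had 0 that rose and 7 that fell (5 in OT14 alone), with a median of -4.24. Krt5 and Krt14, the keratin pair of basal keratinocytes, read 11.62 and 10.53 (Krt5) and 11.24 and 10.36 (Krt14) on the WD-SCC arrays of OT14 and OT15, and 4.22 and 3.93, and 4.39 and 4.57, on the PD/S-SCC arrays. The groups were far apart for both genes, by -7.00 ± 0.27 SE for Krt5 (adjusted p = 0.0266) and -6.32 ± 0.33 SE for Krt14 (adjusted p = 0.0341). Krt6a, a keratin of wounded and hyperproliferative epidermis, fell from 11.53 and 11.37 to 3.03 or less, at least 213-fold, and Krt6b at least 141-fold. Krt80 and Krt78 also fell. Of the 6 simple epithelial keratins only Krt23 passed, at 9.01 and 9.33 in WD-SCC and 3.77 and 3.93 in PD/S-SCC. Krt18 read 7.64 and 7.93 against 7.34 and 6.58, and its partner Krt8 moved in opposite directions in the lineages, as given further on.

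Of 26 transcription factors of epithelial identity 6 fell and 0 rose, with a list median of -1.62. Elf3 and Ehf, ETS factors of differentiating epithelia, read 10.01 and 10.61, and 9.49 and 9.77, in WD-SCC, and between 3.60 and 3.79 in PD/S-SCC. Grhl3, a grainyhead factor required for the epidermal barrier, went from 8.41 and 8.55 to 3.13 and 3.79, at least 27.3-fold lower. Hopx, Cebpa and Esrp2 also fell. Trp63, the master regulator of stratified epithelium, read 6.62 and 6.35 in WD-SCC and 3.44 and 3.79 in PD/S-SCC, under the controls in both, at least 6.83-fold lower, and narrowly missed the threshold (adjusted p = 0.0517). Within OT14 alone 0 of the 26 factors passed, and within OT15 alone 1.

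Epithelial surface and polarity genes lay on 1 side throughout. All 24 measured members read lower on both PD/S-SCC arrays than on both WD-SCC arrays, an arrangement that 29.4% of all genes showed; 13 of the 24 passed, against 1.13% of all genes. The median was -3.61, with -3.95 in OT14 and -3.80 in OT15, and 7 of the 24 fell in OT14 alone. Psca, a glycolipid-anchored surface antigen, read 11.73 and 11.80 in WD-SCC and 3.54 and 4.07 in PD/S-SCC. Epcam, the epithelial adhesion molecule, read 9.61 and 9.24 against 4.28 and 4.16, a difference of -5.21 ± 0.17 SE (adjusted p = 0.0252). Cd24a was at least 33.0-fold lower, and the matriptase gene St14 and both genes of its inhibitors, Spint1 and Spint2, fell by 4.48, 3.41 and 4.08. Cdh1, which encodes E-cadherin, read 6.28 and 5.81 against 2.83 and 3.21, under the controls in PD/S-SCC, at least 5.04-fold lower, and missed the threshold (adjusted p = 0.0570).

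Among 16 tight junction genes 4 fell and 0 rose. Cldn4, a claudin, read 11.06 and 11.51 in WD-SCC and 3.43 and 3.81 in PD/S-SCC, and F11r, the junctional adhesion molecule, 7.62 and 7.50 against 3.73 and 3.86. Cgnl1 and Tjp1, of the junction's cytoplasmic plaque, fell by 3.16 and 2.96. Within OT14 alone 0 of the 16 passed, and within OT15 alone 2. Among 10 desmosome genes 3 fell: Dsp, which encodes desmoplakin, at least 162-fold, Dsc2 by 4.64 and Pkp1 by 3.71, and 1 of the 10 fell in OT14 alone. Of 18 genes of the epidermal lipid barrier 3 fell, among them the lipoxygenase gene Alox12b by 6.61. On both PD/S-SCC arrays 16 of the 18 read lower than on both WD-SCC arrays, as did 29.4% of all genes. Of 19 hemidesmosome, laminin and integrin genes only Lama3, the laminin-332 α chain, passed (9.35 and 9.03 against 3.65 and 3.24), while Lamb3, the β chain of the same laminin, read 8.96 and 5.27 against 4.20 and 4.28 and did not pass. In OT14 alone, which leaves aside the WD-SCC array of OT15 that stood apart, the median over all genes was 0.01. The list medians there were -4.54 for cornified envelope genes, -4.87 for basal and stress keratins, -1.16 for epithelial identity factors and -3.95 for surface genes. They were -0.86 for tight junction, -1.44 for desmosome and -2.69 for lipid barrier genes.

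**Figure D3:**
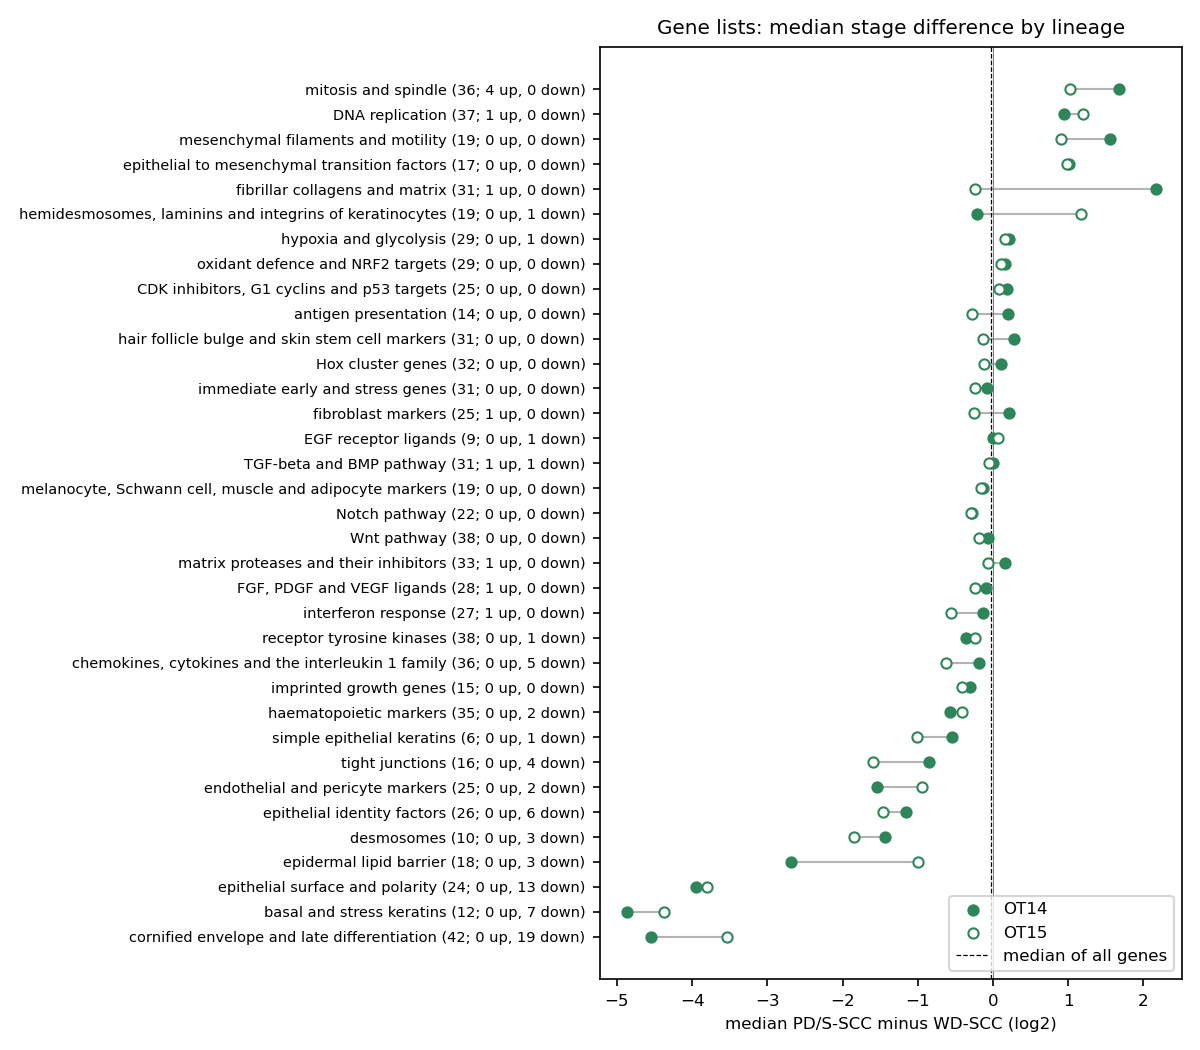
Median stage difference (PD/S-SCC minus WD-SCC, log2) of each gene list in OT14 (filled) and OT15 (open), with the number of measured members and of members past the threshold in each direction in brackets. The dashed line is the median of all genes; cornified envelope, keratin and surface genes lie lowest in both lineages, and the collagen and the hemidesmosome lists are those whose medians lie on opposite sides of 0 by the widest margin.

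The rises were led by Gfra2, the receptor subunit that binds neurturin. It read 3.66 and 3.31 on the WD-SCC arrays of OT14 and OT15, under both controls, and 11.10 and 10.22 on the PD/S-SCC arrays, at least 94.4-fold higher (adjusted p = 0.0252, limma). Crabp1 read 3.61 and 5.08 against 10.88 and 11.24, a difference of 6.72 ± 0.35 SE (adjusted p = 0.0340). These 2 genes stood well clear of the next rise. Sdc2, a syndecan, read 4.28 and 3.25 against 8.19 and 7.72, and Ttc39c 5.53 and 5.29 against 9.34 and 9.54. Vcan, a large matrix proteoglycan, read 4.02 and 3.97 against 7.74 and 7.96. Lhfp, the peroxiredoxin gene Prdx4, Pmp22 and Ptgs2, which encodes the inducible cyclooxygenase, rose by 3.34 (Pmp22) to 3.86 (Lhfp). The nuclear receptor gene Nr2f1 was under the controls in both WD-SCC samples (3.08 and 3.06) and read 6.60 and 6.51 in PD/S-SCC, at least 5.50-fold higher. Ptgs2 read 4.95 and 5.93 against 8.09 and 9.51, so its rise was similar in the lineages while its level was higher in OT15 at both stages.

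Most cell cycle genes read higher in PD/S-SCC, and few passed the test. Of 36 mitosis and spindle genes 4 rose (2 in OT14 alone) and 0 fell, with a median of 1.23, and 31 read higher on both PD/S-SCC arrays than on both WD-SCC arrays (24.5% of all genes did). Leaving out either WD-SCC array gave 1 rise in this list in place of 4. Cdk1, the kinase that drives entry into mitosis, read 5.10 and 4.83 in WD-SCC and 8.02 and 7.79 in PD/S-SCC (2.94 ± 0.15 SE, adjusted p = 0.0338). Cdca8, of the chromosomal passenger complex, read 5.45 and 3.54 against 8.64 and 7.12. Aurka, a spindle pole kinase, and Prc1, which bundles midzone microtubules, rose by 2.65 and 2.56. Mki67, the proliferation marker, read 6.52 and 5.67 against 8.26 and 7.74 and missed the threshold (adjusted p = 0.0568). Of 37 DNA replication genes 1 rose, the helicase subunit Mcm6, from 3.77 and 3.23 to 6.87 and 6.87, at least 6.82-fold (0 of the 37 passed in OT14 alone), and 29 read higher on both PD/S-SCC arrays.

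Genes of the mesenchymal state read higher on average, and none passed. Of 17 factors of epithelial to mesenchymal transition 0 passed in limma. An unadjusted p under 0.05 was reached by 11 of them, 9 higher in PD/S-SCC, against 21.7% of all genes, and 6 passed in the fit over all 8 arrays, 4 higher and 2 lower, against 6.14% of all genes. The median was 0.92, and 11 read higher on both PD/S-SCC arrays, as did 24.5% of all genes. Twist1 read 4.90 and 5.43 in WD-SCC and 7.72 and 7.39 in PD/S-SCC (adjusted p = 0.0719), Zeb1 6.92 and 5.16 against 8.18 and 8.08 (adjusted p = 0.159), and Snai1 6.50 and 5.90 against 7.29 and 6.59 (adjusted p = 0.134). Vim, which encodes vimentin, was already bright in WD-SCC, at 9.56 and 10.18, and read 11.12 and 11.09 in PD/S-SCC (adjusted p = 0.122). None of the 19 mesenchymal filament and motility genes passed, 10 had an unadjusted p under 0.05, all of them higher (12.6% of all genes were higher at that p), and 5 passed as higher in the fit over all 8 arrays; the median was 0.97. For Twist1, Zeb1, Snai1 and Vim the 2 stages did not overlap, but the differences were small or unequal in the lineages.

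Few receptors and ligands passed, and 1.44% of all genes did. Among 38 receptor tyrosine kinases 1 passed, Ephb3, from 9.72 and 10.09 to 5.43 and 5.03. Egfr read 6.50 and 6.86 in WD-SCC and 5.70 and 5.78 in PD/S-SCC (adjusted p = 0.114), Fgfr1 9.09 and 10.30 against 11.15 and 11.12 (adjusted p = 0.182), and Pdgfra 3.04 and 3.33, under the controls, against 4.15 and 4.36 (adjusted p = 0.0889). Of 9 EGF receptor ligands Tgfa fell, from 9.66 and 10.17 to 5.03 and 4.93. In the TGF-beta and BMP list the BMP antagonist gene Grem1 rose, from 4.61 and 6.69 to 7.14 and 8.96, and the pseudoreceptor gene Bambi fell, from 5.82 and 5.88 to 3.26 and 3.18, at least 4.40-fold. The chemokine, cytokine and interleukin 1 list (36 genes) had 0 that rose and 5 that fell, among them Il1f9 by 7.53, the receptor antagonist gene Il1rn by 6.58, and Cxcl5, from 9.38 and 9.22 to 3.41 and 3.72, at least 48.1-fold. No member passed in the Wnt, Notch, Hox, antigen presentation, NRF2 or immediate early lists. With 1.44% of all genes past the threshold, the absence of calls in lists of 14 to 38 genes says little about them.

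Markers of other cell types also moved with stage. In bulk RNA of a sorted population, fewer cells of a type and less RNA per cell cannot be told apart. Of 25 endothelial and pericyte markers 0 rose and 2 fell: Tie1, from 7.98 and 8.30 to 3.45 and 3.51, and Pecam1, the CD31 antigen, from 7.54 and 7.40 to 4.21 and 3.47. Their summed linear level was 3030 and 2660 on the WD-SCC arrays of OT14 and OT15 and 454 and 728 on the PD/S-SCC arrays, although the labels describe a depletion of endothelial cells at both stages. Not every endothelial gene fell this far: Cdh5, given under other observations, stayed bright on the PD/S-SCC array of OT15. The 35 haematopoietic markers summed to 7050 and 6680 against 651 and 584, and 2 fell, S100a8 and S100a9, which keratinocytes of inflamed skin also express. Without these 2 genes the sums were 1870 and 1020 against 613 and 504. Ptprc, the CD45 antigen that defines blood cells, was under the controls on all 4 arrays, at 2.84 to 3.17. The 25 fibroblast markers summed to 843 and 1820 in WD-SCC and 5310 and 4360 in PD/S-SCC, with 1 that passed, Crabp1, and a list median of 0.00. Of the 25 markers 7 read higher and 8 lower on both PD/S-SCC arrays than on both WD-SCC arrays (24.5% and 29.4% of all genes). Without Crabp1, left out like the S100 genes after seeing the data, the sums were 831 and 1780 against 3420 and 1950, so that in OT15 most of the rise in the sum came from this gene. Without Dlk1 as well, the sums were 820 and 1770 against 2480 and 1940. Of 12 basal and stress keratins, 11 and 8 were above the control on the WD-SCC arrays of OT14 and OT15 and 5 on each PD/S-SCC array. The part of these cells in the falls and rises described above was not tested.

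Promoter windows of 4 genes past the threshold are shown, 1 each from the cornified envelope, tight junction, epithelial surface and mitosis lists. Each is the 250 bases before the start of the gene, 5′ to 3′ on the gene's strand, from RefSeq on GRCm38.p6. Capitals mark every match, on either strand, of the E2-box CACCTG bound by Snail and Zeb factors, the AP-1 motif TGANTCA, the CCAAT box CCAAT and the cell cycle homology region TTTGAA. The windows are Sprr2d at chr3:92338890-92339139 (plus strand), Cldn4 at chr5:134946935-134947184 (minus), Epcam at chr17:87635729-87635978 (plus) and Cdk1 at chr10:69352913-69353162 (minus).
Sprr2d: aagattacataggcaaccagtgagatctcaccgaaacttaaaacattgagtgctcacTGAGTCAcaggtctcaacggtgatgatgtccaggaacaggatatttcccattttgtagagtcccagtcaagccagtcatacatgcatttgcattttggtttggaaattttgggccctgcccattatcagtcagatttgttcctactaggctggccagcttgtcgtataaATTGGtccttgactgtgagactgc
Cldn4: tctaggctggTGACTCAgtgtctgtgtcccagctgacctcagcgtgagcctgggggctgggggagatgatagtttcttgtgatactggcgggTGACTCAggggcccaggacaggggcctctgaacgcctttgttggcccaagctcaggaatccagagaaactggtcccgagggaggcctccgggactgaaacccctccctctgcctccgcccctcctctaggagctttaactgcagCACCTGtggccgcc
Epcam: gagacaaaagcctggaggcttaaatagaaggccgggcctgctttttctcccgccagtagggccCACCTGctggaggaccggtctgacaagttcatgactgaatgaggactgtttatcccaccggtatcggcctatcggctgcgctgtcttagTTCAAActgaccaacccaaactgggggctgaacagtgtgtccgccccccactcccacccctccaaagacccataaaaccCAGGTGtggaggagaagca
Cdk1: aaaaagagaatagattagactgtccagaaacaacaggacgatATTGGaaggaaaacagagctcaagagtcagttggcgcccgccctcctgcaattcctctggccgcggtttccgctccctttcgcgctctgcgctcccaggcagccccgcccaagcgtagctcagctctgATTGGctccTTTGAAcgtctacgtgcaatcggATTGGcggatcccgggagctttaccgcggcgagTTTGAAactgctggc
Sprr2d holds 1 AP-1 match and 1 CCAAT box, Cldn4 holds 2 AP-1 matches and 1 E2-box, Epcam holds 2 E2-boxes and 1 cell cycle homology match, and Cdk1 holds 3 CCAAT boxes and 2 cell cycle homology matches. An E2-box lay in 9 of 11 windows of the epithelial surface list (81.8%), against 17.1% of the windows of all genes on the arrays, but these 11 windows belong to 10 of the 24 genes, and the other members had none. In the tight junction list 35.0% of 20 windows held an E2-box, and 2 of the 20 held an AP-1 match. An AP-1 match lay in 34.1% of the 41 windows of the cornified envelope list, against 5.73% of all. The CCAAT box lay in 83.3% of the 36 windows of the mitosis list, against 34.9% of all, and the cell cycle homology region in 33.3%, against 11.9%. A match is a description of letters in this window, and no binding was measured.

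The next comparison asked where the lineages differed in their course. Several collagen genes were dim in WD-SCC of OT14 and bright in its PD/S-SCC, whereas in OT15 they were bright at both stages. Dlk1, Hoxa9 and Zic2 were bright on the PD/S-SCC array of OT14 and near the controls on the other arrays, and the tumour suppressor genes Cdkn2a and Cdkn2b read lowest in PD/S-SCC of OT15. The difference between the lineages' stage effects passed the threshold for 0 of 17097 genes (limma, all 8 arrays, with the spread from the OT7 arrays; 1026 at an unadjusted p under 0.05, smallest adjusted p 0.432), so these are values and not calls. The direct differences between the lineages gave 0 genes at the WD-SCC stage (1520 unadjusted) and 0 at the PD/S-SCC stage (812 unadjusted).

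Of 31 collagen and matrix genes, 22 read higher on the WD-SCC array of OT15 than on that of OT14, as did 55.7% of all genes. At least 4-fold higher were 11 of the 31, as were 82 of all 17097 genes, and 0 of the 31 were at least 4-fold lower. The list's median stage difference was 2.16 in OT14 and -0.23 in OT15. Col3a1 read 3.54 in WD-SCC and 9.76 in PD/S-SCC of OT14, and 10.30 and 9.27 in OT15. Col1a1 read 5.64 and 10.03 in OT14 and 10.98 and 9.78 in OT15, and Col6a1 3.91 and 9.92, and 8.14 and 9.74. For all 3 collagens the WD-SCC array of OT14 was the low one and the other arrays lay within 2 of each other. Bgn, a small leucine-rich proteoglycan, crossed over, at 7.53 and 11.29 in OT14 and 10.04 and 7.23 in OT15, as did Thbs2, at 3.49 and 7.18, and 7.95 and 3.85. The gelatinase gene Mmp2 read 5.16 and 9.81 in OT14 and 9.08 and 8.92 in OT15. Vcan was the only member of the list past the threshold.

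Of 19 hemidesmosome, laminin and integrin genes, 14 read lower on the WD-SCC array of OT15 than on that of OT14, as did 44.3% of all genes, and 5 of them at least 4-fold, as did 162 of all 17097 genes; none of these differences passed. Itgb4, the partner chain of α6-integrin, read 8.84 and 7.14 in WD-SCC and PD/S-SCC of OT14 and 6.23 and 8.44 in OT15. Col17a1, a hemidesmosome collagen, read 8.33 and 4.28 in OT14 and 5.60 and 4.62 in OT15. The median of the 19 genes of that list was -0.22 in OT14 and 1.17 in OT15. Prom1, Mal2, Tmem45b and Rhox5 were above the control in WD-SCC of OT14 and under it on the other arrays. Prom1, which encodes CD133, read 8.14 there and 2.90 to 3.32 elsewhere, and Rhox5, a reproductive homeobox gene, 7.61 there and 3.29 to 3.54 elsewhere.

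At the later stage Dlk1, an imprinted gene of fetal and stromal tissue, read 9.88 in OT14 and 3.43 in OT15, against 3.52 and 3.97 in WD-SCC. Hoxa9 read 7.83 in PD/S-SCC of OT14 and 3.37 to 3.87 on the other arrays, and Zic2, a zinc finger gene, 7.69 against 3.03 to 3.41. Tbx20 and Slc14a1 were the counterparts in OT15, at 7.58 and 6.83 in its PD/S-SCC, against 3.78 to 4.45 and 3.66 to 3.84 elsewhere. Krt8 read 4.44 and 8.20 in OT14 and 6.57 and 3.56 in OT15, so that its mean difference of 0.38 describes neither lineage. Cdkn2a, which encodes the p16 and p19 inhibitors, read 7.43 and 8.09 in OT14 and 7.85 and 3.91 in OT15. Its neighbour Cdkn2b, the p15 inhibitor gene, read 8.84 and 8.42 in OT14 and 9.04 and 3.55 in OT15, under the control at the end. Mtap, a metabolic gene of the same chromosomal region, was not low there, at 6.05 and 8.04 in OT14 and 4.56 and 8.88 in OT15. Of 482 genes that differed at least 4-fold in each lineage, 3 did so in opposite directions, namely Bgn, Krt8 and Thbs2.

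**Figure D4:**
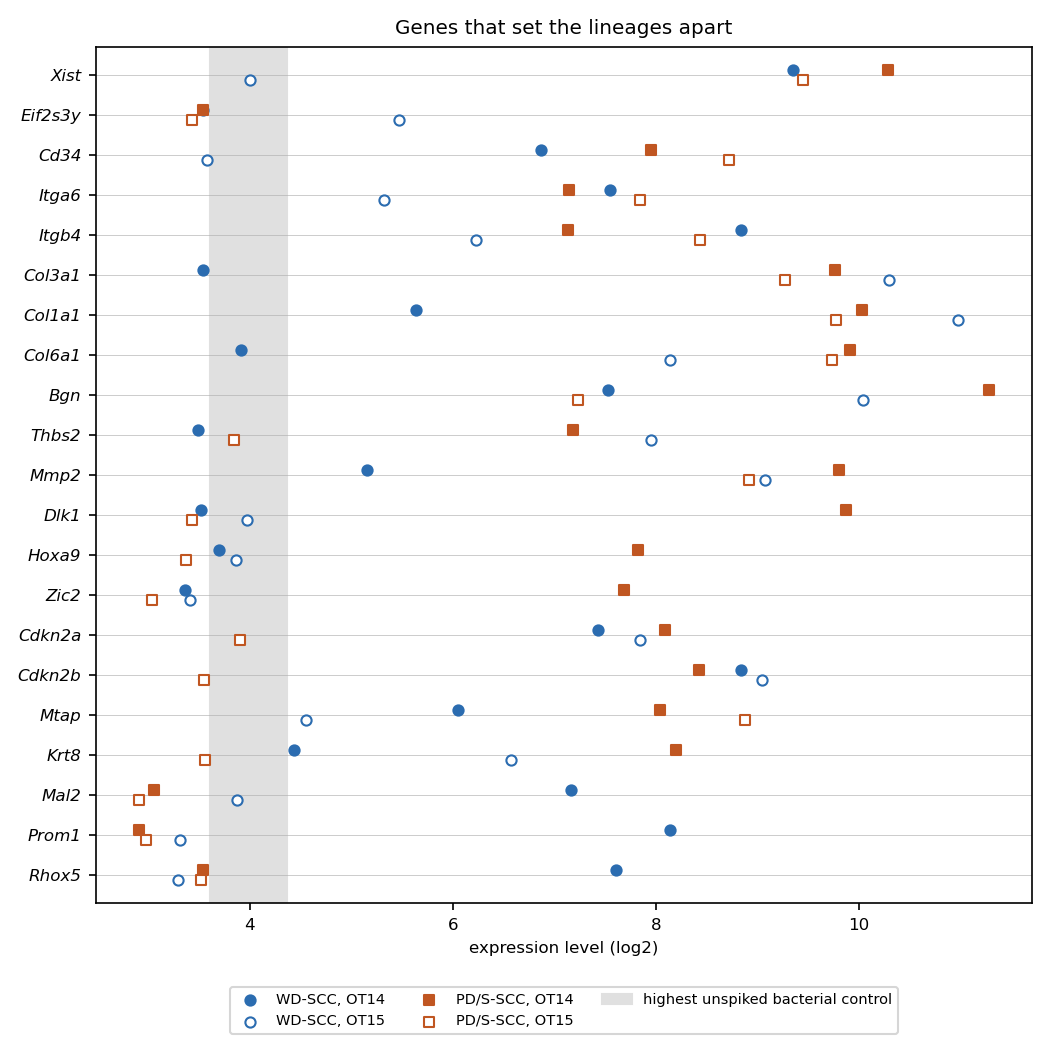
Expression level (log2, horizontal axis) of 21 genes chosen with their values in view because they set the lineages apart, 1 point per array: circles WD-SCC, squares PD/S-SCC, filled OT14, open OT15, grey band the range of the highest bacterial control. The open circle (WD-SCC of OT15) lies lowest for Xist, Cd34 and Itga6 and highest for Eif2s3y, Col3a1 and Col1a1, and the filled square (PD/S-SCC of OT14) alone lies to the right for Dlk1, Hoxa9 and Zic2.

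The last comparison set OT14 and OT15 against OT7, whose arrays were not in the fit that called the 246 genes, although they entered the choice of the probe set that stands for a gene. The sign was the same in OT7 for 230 of the 246 and opposite for 16, and it was the same for 70.1% of all genes. Of the 52 higher genes 48 were higher in OT7, with a median difference of 2.59 in OT14 and OT15 and 1.82 in OT7. Of the 194 lower genes 182 were lower, with medians of -4.46 and -2.86. The 246 genes were chosen for a large difference in OT14 and OT15, which by itself favours a smaller size in OT7. In OT7 alone 1551 genes passed (9.07%), 1061 higher and 490 lower. In both fits 121 genes passed with either sign, which is 7.80% of the calls of OT7. With the same sign 119 genes passed in both, which is 48.4% of the calls of OT14 and OT15. The test of the difference between the stage effects gave 0 genes (limma; 2484 at an unadjusted p under 0.05, smallest adjusted p 0.101). Among the genes nearest to it, Rbpms read 8.50 to 8.84 on all 4 arrays of OT14 and OT15 and differed by -5.47 in OT7, while Ldhb, a lactate dehydrogenase gene, differed by -0.30 and -0.64 in OT14 and OT15 and by 4.09 in OT7. Nppc, a natriuretic peptide gene, differed by 3.58 and 1.07 in OT14 and OT15 and by -3.94 in OT7. Of the 246 genes, Adam19, a metalloprotease gene, rose by 2.49 in OT14 and OT15 and differed by -2.81 in OT7, and Myadm rose by 2.39 and differed by -2.29. Ptgs2, Pmp22, Cxcl5, Bambi and Krt23 passed in OT14 and OT15 and differed in OT7 by 0.45, 0.66, -0.79, -0.05 and -1.20, though the difference between the lineages passed for none of them. Bambi lay under the control on every OT7 array, so its value there sets background against background. OT7 arrays of 1 stage lay far apart for Cxcl5 (3.77 and 7.03 in PD/S-SCC) and Pmp22 (6.47 and 3.92 in WD-SCC). They did so for Ptgs2 as well (8.04 and 6.31 in WD-SCC).

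**Figure D5:**
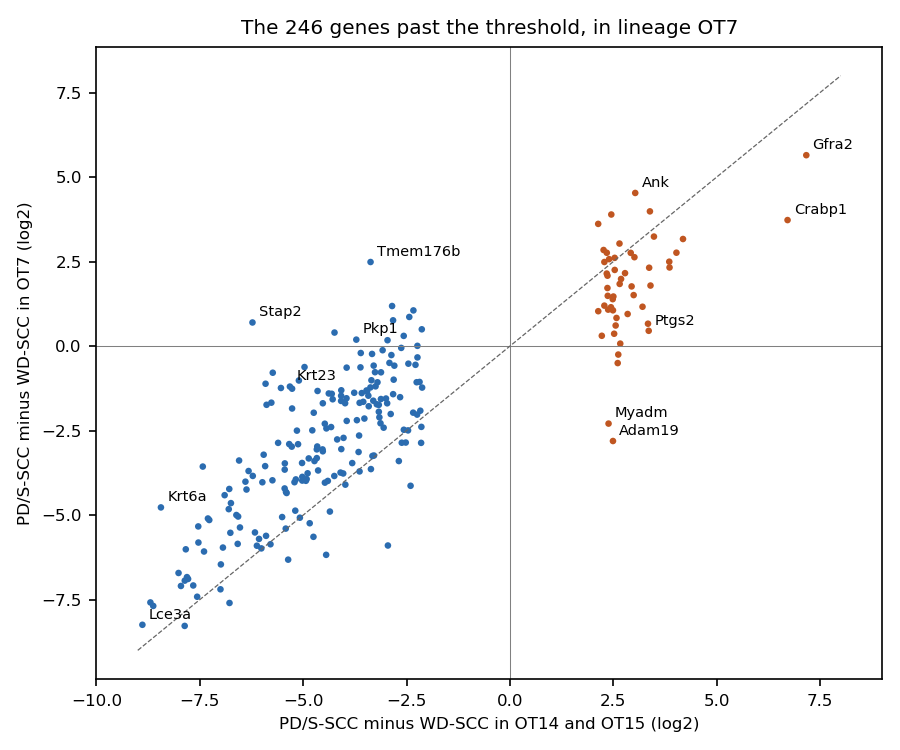
Stage difference (PD/S-SCC minus WD-SCC, log2) of the 246 genes past the threshold in OT14 and OT15 (horizontal axis) against that in OT7 (vertical axis), orange for the 52 higher and blue for the 194 lower genes. Most points lie between the horizontal line at 0 and the dashed line of equal differences (200 genes had the same sign and a smaller size in OT7), and Adam19, Myadm and Tmem176b are among the 16 of opposite sign. The genes were chosen for a large difference in OT14 and OT15, which favours a smaller size in OT7.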

How the data were processed

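Single-colour Affymetrix arrays of 4 OT14 and OT15 samples and 4 OT7 samples were used. The deposited table gives a log2 level for every probe set on each array. Per the submitters' processing notes it was made with affy and RMA, a method of background correction, quantile normalisation and probe summary. Which arrays were normalised together is not given in the sources used here, and scanner files were not used. RMA compresses differences of dim probes, so folds against background are too small.

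Of 45141 probe sets 28898 had 1 gene symbol in the platform annotation, 551 several, 15588 none and 104 were controls. Symbols were updated through RefSeq by Entrez number (99.1% of genes matched). Where a gene had several, the brightest on average across 8 arrays stood for it. limma 3.58.1 (R 4.3.3; lmFit, eBayes, two-sided) fitted the 4 arrays with lineage as a block, pairing the arrays by the lineage named in the titles. Effects within lineages and their differences came from all 8 arrays with 1 coefficient per lineage and stage. Their residual spread is therefore that of the OT7 arrays (2 residual degrees of freedom). It was moderated by a spread borrowed across genes (1.87 prior degrees of freedom). The threshold was an adjusted p of 0.05. The fits were tested on simulated data. Plots used matplotlib 3.10.9.

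The arrays, the 37 gene lists (964 symbols, 94 of them without a probe set of 1 gene) and the rule for named genes were chosen with earlier results of these data known. The rule took the 12 largest rises and falls, from every list the 3 called genes of smallest p or fewer, the leading genes of each lineage comparison and a set of markers. Other genes were named with their values in view. The alternatives were no block, the fit over 8 arrays, leaving out dim genes, averaging or testing separately the probe sets of a gene, scaling by cyclic loess or at the 75th percentile, a prior with trend and robust estimation, floored values for lists, single lineages and leaving out arrays.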

Additional observations from a re-analysis of the deposited data

How the results depend on the processing

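The count of 246 genes became 589 without the lineage block, 1050 in the fit over all 8 arrays, 925 of 10261 genes with the filter on dim genes, 1179 with a trended and robust prior and 144 in OT14 alone. Leaving out each array in turn gave 0 to 448. All 246 genes were among the 925 and among the 1179, 221 among the 589 and 172 among the 1050. Most of the 246 did not pass within OT14 alone or within OT15 alone, each 1 array against 1. The same held for most of the named genes among them. Cyclic loess gave 213 genes, 25 higher and 188 lower, a share of higher genes of 11.7% against 21.1% in the main fit; without the block the share was 36.0%, in the fit over 8 arrays 50.9%, with the filter 42.7% and with the trended prior 43.4%. Of 61 named genes past the threshold 0 reversed under any alternative. The choice of genes favoured this, since all genes past the threshold had a large difference of the same sign in both lineages. With the filter 61 stayed past it and in the fit over all 8 arrays 42, while leaving out either PD/S-SCC array ended every call. The difference between the lineages' stage effects stayed at 0 genes under each alternative run; the trended prior gave 49 genes against OT7, 19 between lineages in WD-SCC and 5 in PD/S-SCC. The stage effect within OT14 gave 243 genes with scaling to the 75th percentile and 276 with the trended prior, and leaving out OT7 arrays 0 to 438. The stage effect within OT15 gave 346 with the filter, 462 with the scaling and 361 with the trended prior, and leaving out OT7 arrays 0 to 664; these alternatives within lineages were chosen after seeing the data. Of the 78 genes whose stage difference was recomputed under each alternative, those that changed sign were Cdkn2a (0.66 in OT14 alone, -3.73 to 0.45 leaving out each array), Itga6 (-0.40 in OT14 alone, -0.049 to 2.17 leaving out each array) and Krt8 (-3.01 in OT15 alone, -1.94 to 2.70 leaving out each array). The calls in the mitosis list ran from 0 to 15 and those in the cornified envelope list from 0 to 26, with 0 where a PD/S-SCC array was left out. Of 92 called genes with more than 1 probe set, 0 had one at least 2-fold the other way. For the rest the cause was not tested. 49 of the lower genes were under the bacterial controls in both PD/S-SCC samples and 7 of the higher genes in both WD-SCC samples, so their differences are bounds. No paired analysis by replicate number was possible because the 4 groups have 1 array each.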

Other observations

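Hoxd9, a homeobox gene of posterior position, read 8.49 and 5.46 in WD-SCC and PD/S-SCC of OT14 and 7.44 and 3.46 in OT15, whereas in OT7 its difference was -0.72. The adhesion molecule gene Thy1 read 7.15 and 3.82 in OT14 and 8.35 and 3.83 in OT15, and the gene of the fatty acid binding protein of adipocytes, Fabp4, read 9.45 and 5.47, and 8.28 and 3.24. Tgfbr3, the co-receptor betaglycan, read 5.40 and 9.41 in OT14 and 6.10 and 8.12 in OT15. Lyz2, a lysozyme gene of myeloid cells, read 8.22 in WD-SCC of OT14 and 3.12 to 3.61 on the other arrays, and Cdh5, which encodes VE-cadherin, read 9.80 and 9.47 in WD-SCC and 4.91 and 8.39 in PD/S-SCC of OT14 and OT15. The probe set of Sry, a gene of the Y chromosome, read 6.39 to 6.62 on all 4 arrays, with and without Xist.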
